A study of Saccharomyces cerevisiae with 9 samples.

Results

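Transfer RNA (tRNA) features of budding yeast were followed through salt shock, array by array. They were the rows of the deposited table whose ID starts with t, a one-letter amino acid and an anticodon in brackets, so that tN(GUU)F is a tRNA for asparagine with anticodon GUU on the chromosome of letter F. This rule found 139 of 6942 features, of which 130 were nuclear and 9 mitochondrial (IDs that end in Q), and 124 had a value on all 9 arrays. The cultures were ckb12, a strain of the BY4741 background that lacks CKB1 and CKB2 (ckb1Δ ckb2Δ), on 2 arrays, and wild type BY4741 (WT) on 7 arrays. CKB1 and CKB2 encode the regulatory subunits of the protein kinase CK2, whose catalytic subunits the strain still has. Every culture was grown in rich YPD medium at 30°C and brought to 0.7 M NaCl for 30 min, and each array set its cDNA against cDNA from unstressed cells of the same strain at t0. ckb12 replicate 1 and WT replicate 8 were labelled set A, ckb12 replicate 2 and WT replicate 9 set B, and WT replicates 10, 11 and 12 sets C, D and E, while WT replicates 1 and 2 carried no set letter. The ckb12 strain was obtained from another laboratory, and no label says whether it is 1 clone.

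Nuclear tRNA genes are transcribed by RNA polymerase III, which is recruited through TFIIIC, bound to promoter elements inside the gene, and TFIIIB. The repressor Maf1 shuts this polymerase down under many stresses, and CK2 is known in yeast to act on the polymerase III machinery. The transcripts are trimmed at both ends, spliced in some families, given a CCA end, heavily modified and exported, and most anticodons are encoded by several nearly identical gene copies. Mitochondrial tRNAs come from a separate genome and are made by the mitochondrial RNA polymerase.

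Values are given on the log2 scale as treated signal divided by unstressed signal, so that 0 stands for no difference and positive values for more signal after NaCl. A ratio gives no transcript level, and signals of copies with near-identical sequence may not be separable on the array, so copies of an anticodon were never counted as replicates. Single arrays held values for 127 to 135 of the 139 tRNA features. The deposited arrays were centred, with medians between -0.00118 and 0.00016 over the values of each array, so every ratio is relative to the median feature of its array. Total RNA was labelled, and how the cDNA was primed is not given in the sources used here. The ratio of CKB1 was 0.97 and 0.44 in ckb12, against -0.88 to -0.38 over the WT arrays, and that of CKB2 was 0.82 and 0.71 in ckb12, against -0.47 to 0.10 over the WT arrays, so the strains separated, although a ratio within 1 strain cannot show the deletions. Statements on calls are from limma with Benjamini-Hochberg adjustment over all features fitted, at an adjusted p below 0.05.

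The tRNA class moved as a block, by an amount that differed between cultures of the same strain. Over the 124 features the median ratio was -0.15 on ckb12 replicate 1 and -1.42 on ckb12 replicate 2. On WT replicates 1, 2, 8, 9, 10, 11 and 12 it was -0.17, -0.32, -0.72, -0.02, 0.08, -1.0 and 0.47. Replicate 1 of ckb12 thus lay inside the WT range and replicate 2 below it. Medians averaged -0.78 ± 0.90 in ckb12 (SD, n = 2) and -0.24 ± 0.49 in WT (SD, n = 7), and without WT replicate 11 the WT mean was -0.11. The difference between the strain means was smaller than the SD over the ckb12 arrays. Since the deposited arrays were centred, the median over all 6129 features with complete values was near 0 by construction, so the class shift is one relative to the rest of the array.

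**Figure D1:**
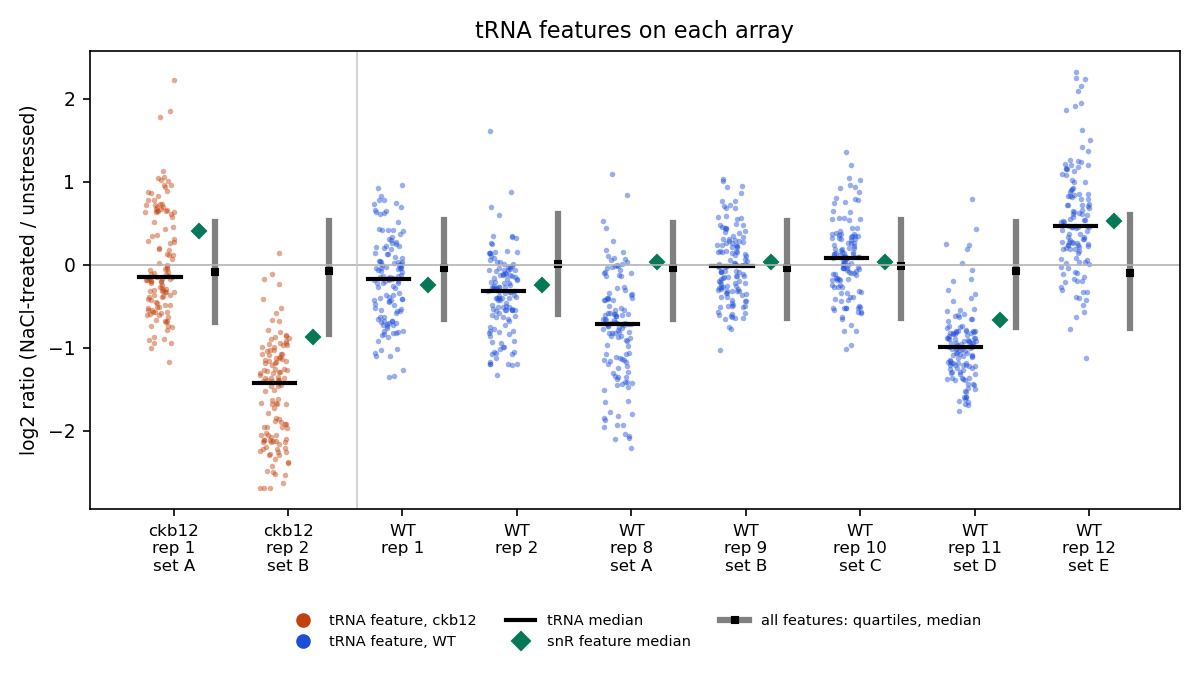
Log2 ratio of NaCl-treated over unstressed signal (vertical axis) for the 124 tRNA features with a value on all 9 arrays, 1 point per feature, for the ckb12 arrays (orange) and the WT arrays (blue); black lines are tRNA medians, green diamonds medians of 68 features named snR, and grey bars with black squares the quartiles and median of all 6129 features. The tRNA median lay lowest on ckb12 replicate 2 at -1.42 and highest on WT replicate 12 at 0.47, and the median of all features is near 0 because the arrays were centred.

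Arrays differed more than features did. For 118 nuclear tRNA features on 9 arrays, 57.4% of the sum of squares lay between arrays, 18.1% between features and 24.5% in the remainder. On the WT arrays alone 49.4% of the nuclear tRNA variation lay between arrays. The median SD of a tRNA feature was 1.09 over the ckb12 arrays and 0.57 over the WT arrays, against 0.14 and 0.23 for all features.

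Extreme arrays were extreme for most members. WT replicate 12 was the highest WT array for 84 of 124 tRNA features (67.7%), compared with 22.8% of all features. WT replicate 11 was the lowest for 81 (65.3%), compared with 19.7% of all features. On WT replicate 8 another 37 members (29.8%) had their lowest WT value, compared with 5.43% of all features. ckb12 replicate 2 lay below every WT array for 88 members (71.0%), compared with 24.7% of all features, whereas ckb12 replicate 1 lay inside the WT range for 109 (87.9%), compared with 71.0%.

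Features named snR, which are small nucleolar RNAs and some spliceosomal small nuclear RNAs, were low and high on the same extreme arrays. The median of 68 such features was 0.40 and -0.88 on ckb12 replicates 1 and 2. On WT replicates 1, 2, 8, 9, 10, 11 and 12 it was -0.24, -0.24, 0.03, 0.04, 0.03, -0.66 and 0.52. Their lowest and highest arrays were those of the tRNA class, but WT replicate 8, low for tRNA, stood at 0.03 for snR features. Over 9 arrays the snR and tRNA medians correlated at a Pearson's r of 0.861 (Spearman's rho 0.867), and at 0.546 without WT replicate 11 and ckb12 replicate 2. Over the 7 WT arrays r was 0.816, and 0.062 without WT replicates 11 and 12, so the relation within WT rests on those arrays. Arrays accounted for 40.9% of the snR variation. Recovery of small RNA, RNA quality and labelling were not measured in the files, and their part in the class shift was not tested.

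The paired sets gave strain differences of opposite sign for the tRNA class. In set A the ckb12 minus WT difference over 133 tRNA features had a median of 0.65, with 104 positive and 29 negative. In set B the median was -1.46, with 2 positive and 131 negative. A positive difference in set A with a negative one in set B was found for 104 of the 133 features (78.2%), compared with 66.2% of snR features and 16.1% of all 6600 features tested. The sign was the same in both sets for 20.3% of tRNA features and 63.7% of all features. Each set held 1 culture per strain, so strain and culture cannot be told apart within a set.

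**Figure D2:**
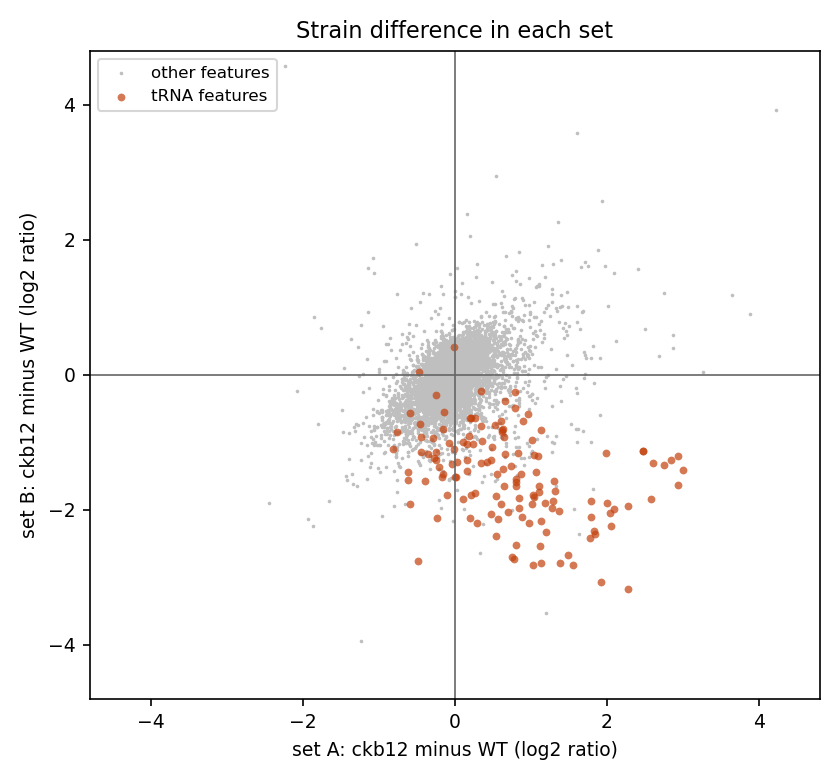
Difference of log2 ratios, ckb12 minus WT, in set A (horizontal axis) and set B (vertical axis) for 133 tRNA features (orange) and the other features with values on all 4 arrays (grey). Most tRNA features, 104 of 133, lie right of and below 0, away from the main cloud of features, whose differences more often share a sign.

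Amino acid groups differed in their means, but the pattern across features was kept only in part between arrays. Across 118 nuclear features, whose copies may share signal, Pearson's r was -0.03 between the ckb12 arrays. Between pairs of WT arrays it was 0.04 to 0.69, with a median of 0.48. Averaged over nuclear copies and arrays, tRNA for asparagine (N) had the lowest mean in WT, at -0.88 ± 0.33 in ckb12 (SD, n = 2) and -0.87 ± 0.33 in WT (SD, n = 7). Its WT arrays ran from -1.35 to -0.42, all below 0. The tRNA features for methionine (M) were the other group whose mean was below 0 on all 7 WT arrays. They averaged -0.84 ± 0.43 in ckb12 (SD, n = 2) and -0.55 ± 0.36 in WT (SD, n = 7), where group means ran from -1.17 to -0.06. Methionine features were not alike, since tM(CAU)M differed from the mean of the other 2 by 1.26 and -0.79 on ckb12 replicates 1 and 2, and by 0.74 on WT replicate 12. The highest WT mean was that of tRNA for glutamine (Q), at -0.20 ± 3.05 in ckb12 (SD, n = 2) and 0.32 ± 0.59 in WT (SD, n = 7). Of 21 groups, 17 had a WT mean below 0. In ckb12 the lowest mean was that of proline, at -1.46, and the highest that of glycine, at -0.16.

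Between these ends the WT means ran in a close order. Proline (P) averaged -0.62, valine (V) -0.51, leucine (L) -0.51, lysine (K) -0.44 and arginine (R) -0.35. Histidine (H) averaged -0.32, tryptophan (W) -0.32, serine (S) -0.27, phenylalanine (F) -0.22 and glutamate (E) -0.13. Threonine (T) averaged -0.07, tyrosine (Y) -0.04, isoleucine (I) -0.04 and alanine (A) -0.01, while aspartate (D), cysteine (C) and glycine (G) had positive means of 0.13, 0.16 and 0.23. Neighbours in this order differed by less than their SD over arrays, which lay between 0.33 for asparagine and 1.03 for glutamate. The feature tX(XXX)D, to which its ID assigns no amino acid, averaged -0.71 ± 0.59 in WT (SD, n = 7).

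Copies of an anticodon were alike. Among 26 nuclear anticodons with 2 or more complete copies, 80.5% of the variance of the WT means of 110 features lay between anticodons and 69.0% between amino acids, where the finer grouping can only take the larger share. On single arrays the share between anticodons was 82.3% and 87.5% on ckb12 replicates 1 and 2, and 45.9% (replicate 11) to 91.0% (replicate 8) on WT arrays. Copies of an anticodon scattered with an SD of 0.18 around their mean, whereas anticodon means had an SD of 0.33. Of what remained after array and feature means were removed over 9 arrays, 78.3% lay between 34 anticodon groups, tX(XXX) among them. A group of 1 feature lies wholly between groups, and the share was 76.1% for the 26 anticodons with 2 or more copies. Copies thus followed each other in how they deviated on a given array, where near-identical copies may share signal.

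**Figure D3:**
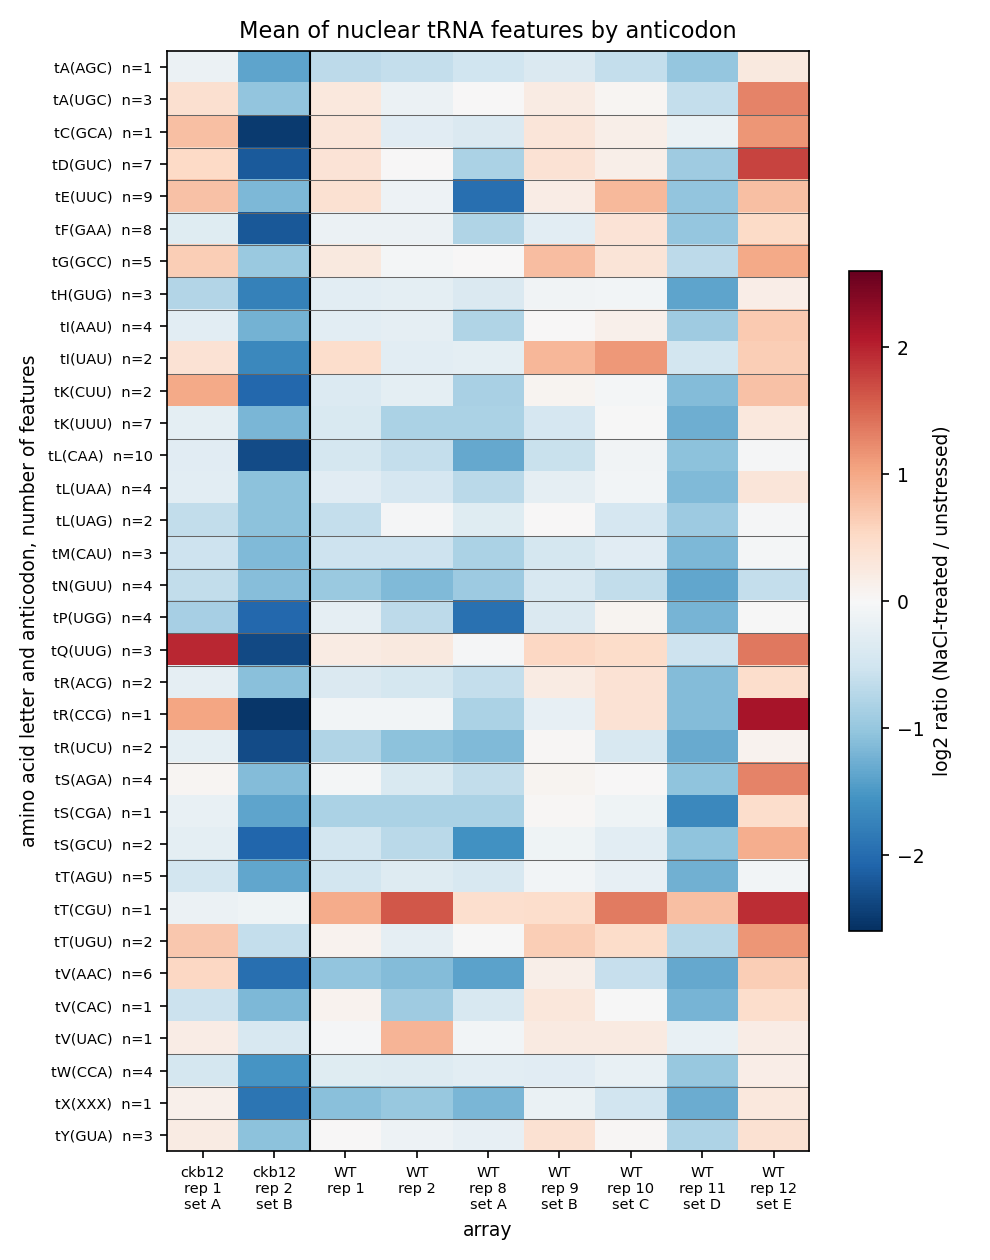
Mean log2 ratio of NaCl-treated over unstressed signal (colour, blue below 0 and red above 0) of the nuclear tRNA features of each anticodon (rows, with the number of complete features) on each array (columns, ckb12 left of the line and WT right of it). The column of ckb12 replicate 2 is blue throughout, and tN(GUU) is the row with the lowest WT mean, -0.87, and tT(CGU) that with the highest, 1.07.

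Single anticodons departed from the class on single arrays. The 9 nuclear copies of tE(UUC), for glutamate, averaged 0.77 and -1.18 on ckb12 replicates 1 and 2. On WT replicates 1, 2, 8, 9, 10, 11 and 12 they averaged 0.40, -0.13, -1.96, 0.18, 0.85, -1.03 and 0.79. WT replicate 8 was thus far lower for tE(UUC) than for the class (-0.72), and its copies tE(UUC)L, at 1.12, and tE(UUC)I, at 1.10, had the largest SDs over the WT arrays (n = 7), followed by tD(GUC)L1 at 1.08. Proline tRNA tP(UGG) shared this low value, with -1.94 on WT replicate 8. Glycine tRNA tG(GCC), by contrast, stood at 0.00 there, and at 0.64 and -0.96 on the ckb12 arrays.

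The widest gap between ckb12 arrays belonged to tQ(UUG), for glutamine. Its 3 copies averaged 1.95 on ckb12 replicate 1 and -2.35 on replicate 2, outside the WT range of -0.55 to 1.37 on both sides. tQ(UUG)L, for example, gave 2.23 and -2.70 on the ckb12 arrays, against -0.59 at lowest, 0.16 at the median and 1.5 at highest on the WT arrays. Of the 124 features, 8 (6.45%) lay above every WT array on ckb12 replicate 1 and below every WT array on replicate 2, compared with 0.832% of all features. These were the 3 copies of tQ(UUG), tK(CUU)G3 and tK(CUU)P for lysine, tV(AAC)K1 and tV(AAC)M3 for valine, and tD(GUC)J3 for aspartate.

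**Figure D4:**
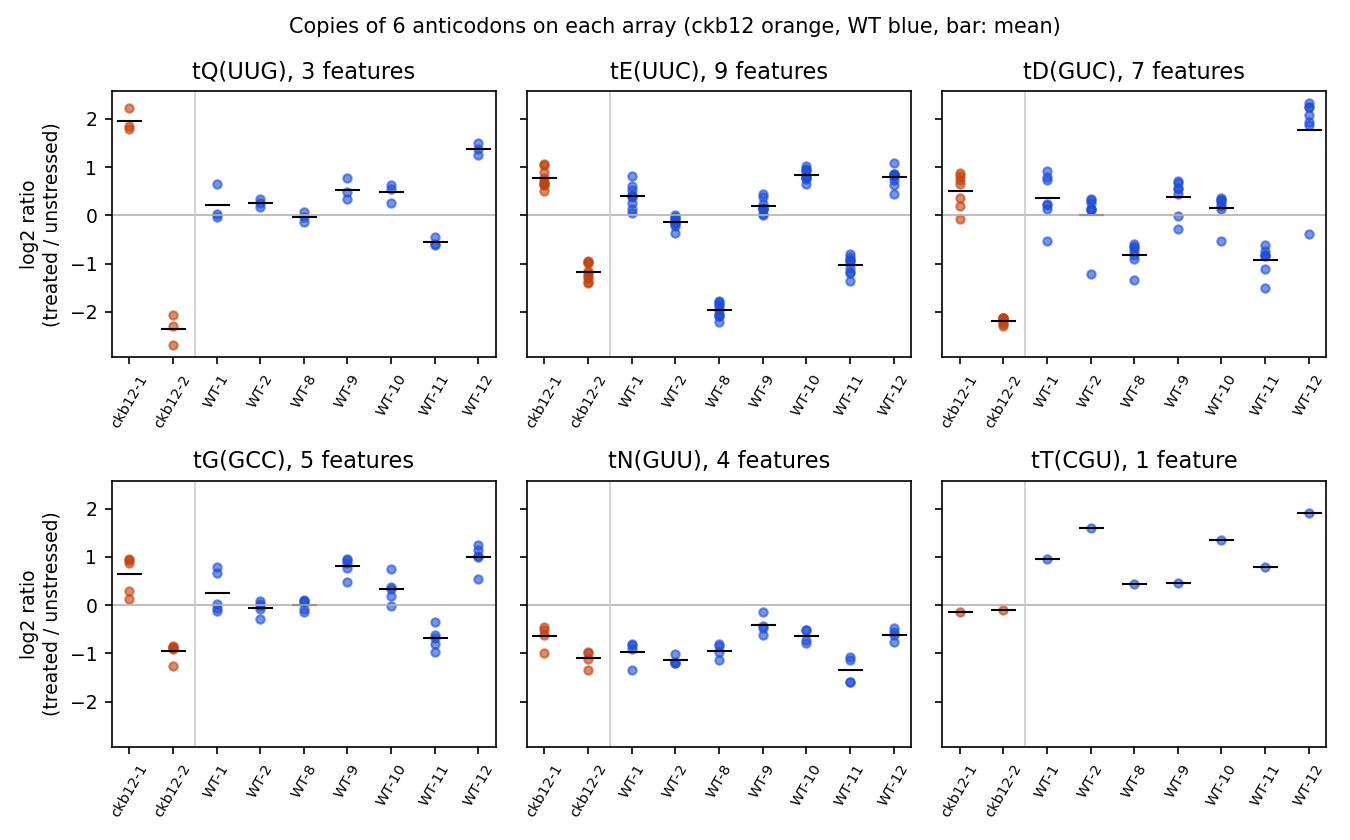
Log2 ratio of NaCl-treated over unstressed signal (vertical axis) for the complete nuclear copies of 6 anticodons, 1 point per copy and array, for ckb12 (orange, left) and WT (blue, right); bars are means of copies. Copies of tQ(UUG) and tE(UUC) lie close together on each array while arrays differ widely, and tN(GUU) is below 0 on all arrays.

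Tested one by one, few tRNA features had a consistent WT response beside the spread between cultures. In WT 38 of 124 passed (30.6%), where 77.8% of all features passed. Of these, 34 were lower and 4 higher, against 41.0% and 36.8% of all features. Without WT replicate 8 there were 25, and without WT replicate 11 there were 23. Only 12 members (9.68%) lay below 0 on all 7 WT arrays, compared with 36.5% of all features, and 2 (1.61%) above it, compared with 30.8%. The WT means of the 34 that fell were between -1.0 and -0.34.

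At least 1 fall was found in 15 of 34 anticodon groups. All 4 copies of tN(GUU) fell, as did 6 lysine tRNA features of the 9 with complete values, 8 of 16 for leucine, 3 of 4 for proline, 3 of 8 for threonine, 2 of 3 for methionine, 2 of 8 for valine, and 1 each for alanine, arginine, aspartate, serine, tryptophan and tX(XXX), beside 41.0% of all features. None fell among the 9 nuclear features for glutamate, 8 for phenylalanine, 6 for isoleucine, 5 for glycine and 3 each for glutamine, histidine and tyrosine. Copies of 1 anticodon share sequence, so these counts are not of independent genes.

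tN(GUU)F fell most. Its ratios were -0.61 and -1.12 on the ckb12 arrays, and -1.34, -1.20, -0.81, -0.48, -0.79, -1.60 and -0.78 on WT replicates 1, 2, 8, 9, 10, 11 and 12. Every array was below 0, and both ckb12 values lay inside the WT range. The WT mean was -1.0 ± 0.39 (SD, n = 7, limma adjusted p = 2.21e-05). The next largest falls were those of tN(GUU)N1 (-0.90, adjusted p = 0.000125), the leucine tRNAs tL(CAA)M (-0.83, adjusted p = 0.00501) and tL(CAA)G3 (-0.82, adjusted p = 0.00233), and tD(GUC)J3 (-0.83, adjusted p = 0.00729), all by limma with Benjamini-Hochberg adjustment.

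The steadiest of all was tM(CAU)P, a methionine tRNA. It gave -1.17 and -1.08 on the ckb12 arrays, against -0.71, -0.54, -0.92, -0.78, -0.27, -0.76 and -0.40 on WT replicates 1, 2, 8, 9, 10, 11 and 12. Both ckb12 values lay below every WT value. Its WT SD of 0.23 (n = 7) was the smallest of the class, and the ckb12 minus WT difference of -0.50 did not pass in limma (adjusted p = 0.200).

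The largest rise was that of tT(CGU)K, the only gene in the table for its threonine anticodon. Its ratios were -0.15 and -0.11 on the ckb12 arrays, against 0.96, 1.61, 0.44, 0.45, 1.36, 0.79 and 1.91 on WT replicates 1, 2, 8, 9, 10, 11 and 12. All WT arrays were above 0 and both ckb12 arrays just below it, with no overlap. The WT mean was 1.07 ± 0.57 (SD, n = 7, limma adjusted p = 0.000124). The ckb12 minus WT difference was -1.20 against all WT arrays (limma adjusted p = 0.143) and -0.57 within sets A and B (limma adjusted p = 0.171), so it passed in neither fit.

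The other rises in WT were tY(GUA)J1, a tyrosine tRNA on letter J (0.52 ± 0.38, SD, n = 7, limma adjusted p = 0.0059), and the mitochondrial tE(UUC)Q (0.50 ± 0.25, SD, n = 7, limma adjusted p = 0.00204) and tF(GAA)Q (0.40 ± 0.38, SD, n = 7, limma adjusted p = 0.0213). The remaining members among the 5 largest WT means, mitochondrial tK(UUU)Q (0.46) and tD(GUC)L2 (0.41), did not pass.

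In ckb12 48 of 124 tRNA features passed (38.7%), all of them lower, where 63.0% of all features passed with 27.4% higher and 35.7% lower. Of the 48 that fell in ckb12, 24 (50%) also fell in WT, and of the 34 that fell in WT the same 24 (70.6%) fell in ckb12. Over all features the shared falls were 93.8% of those in ckb12 and 81.5% of those in WT, with both strains fitted in 1 model. Whether the others differ between strains is the question of the strain fits. Means of those that fell in ckb12 were between -1.60 and -0.74. They included 12 of 16 leucine, 6 of 8 phenylalanine, all 4 asparagine, all 4 proline, all 4 tryptophan and all 3 histidine features. None fell among the 9 nuclear features for glutamate, 8 for valine, 6 for isoleucine, 5 for glycine and 3 each for glutamine and tyrosine. The count rests on replicate 2: without it 5 members passed, 2 lower and 3 higher, and without replicate 1 it was 81, all lower. With 1 ckb12 array left, the spread comes from the WT arrays alone and the lone array is assumed to vary like them. No member was above 0 on both ckb12 arrays, compared with 40.6% of all features, and 71 (57.3%) were below 0 on both, compared with 47.7%.

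Neither strain comparison called more tRNA features than the background. With the set as a block, 0 of 133 passed in limma, where 0.0152% of all 6600 features did. At an unadjusted p below 0.05 there were 18 (13.5%), all lower in ckb12, compared with 16.6% of all features, 10.5% being lower. Against all 7 WT arrays 1 of 124 passed (0.806%), a lower one, where 1.14% of all features did, 0.783% being lower. In that fit 13 members (10.5%) had an unadjusted p below 0.05, all lower in ckb12, compared with 15.3% of all features, 10.7% being lower. Both ckb12 arrays lay below every WT array for 3 members (2.42%), compared with 12% of all features, namely tE(UUC)Q, tM(CAU)P and tT(CGU)K.

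The member that passed was tE(UUC)Q, the mitochondrial glutamate tRNA. It gave -0.33 and -1.28 on the ckb12 arrays, against 0.42, 0.70, 0.29, 0.28, 0.87, 0.25 and 0.68 on WT replicates 1, 2, 8, 9, 10, 11 and 12. The strains did not overlap, with every WT array above 0 and both ckb12 arrays below it. The difference was -1.30 ± 0.24 (SE, limma adjusted p = 0.0338) against all WT arrays and -1.09 ± 0.25 within sets A and B (SE, limma adjusted p = 0.159). The difference was between -1.34 and -1.24 when single WT arrays were left out, and the call was lost without WT replicate 1, 2, 8, 9 or 11. It was -0.83 without ckb12 replicate 2 and -1.78 without ckb12 replicate 1, and passed in neither case (limma adjusted p = 0.449 and 0.103).

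Mitochondrial tRNAs did not share the block shift in full. The median of the 6 with complete values was -0.17 and -0.75 on ckb12 replicates 1 and 2. On WT replicates 1, 2, 8, 9, 10, 11 and 12 it was 0.34, 0.10, 0.16, 0.30, 0.05, 0.21 and 0.65, above 0 on every array. It averaged -0.46 ± 0.41 in ckb12 (SD, n = 2) and 0.26 ± 0.20 in WT (SD, n = 7), against -0.79 ± 0.91 and -0.25 ± 0.50 for 118 nuclear members. On WT replicate 11, the lowest WT array for nuclear members, mitochondrial tRNAs stood at 0.21. The group was not uniform: tY(GUA)Q, for tyrosine, had ratios of -0.14 and 0.14 in ckb12 and averaged 0.10 ± 0.28 in WT (SD, n = 7), one of the 3 smallest SDs of the class. tR(UCU)Q1, for arginine, was the only member whose set-labelled WT arrays all lay below both unlabelled ones, as 13.2% of all features did, with a difference of -0.79 (limma adjusted p = 0.315).

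The set letters separated no tRNA feature in the test. Between the 5 WT arrays with a set letter and the 2 without, 0 of 124 tRNA features passed, where 0.457% of all features did. At an unadjusted p below 0.05 there was 1 (0.806%), a lower one, compared with 13.2% of all features, 8.73% being lower.

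Anticodons of the same amino acid could keep a fixed order while the class moved. Of 18 such pairs, 6 differed in the same direction on all 7 WT arrays. tT(AGU) lay below tT(CGU) by 1.48 ± 0.59 (SD, n = 7) and below tT(UGU) by 0.60 ± 0.34 (SD, n = 7), and its WT mean was -0.41. tA(AGC), for alanine, lay below tA(UGC) by 0.66 ± 0.24 (SD, n = 7). tR(ACG), for arginine, lay above tR(UCU) by 0.44 ± 0.22, and tS(AGA), for serine, lay above tS(CGA) by 0.44 ± 0.33 and above tS(GCU) by 0.35 ± 0.29 (SD, n = 7 each). These orders are given with no test. Both ckb12 arrays had the same order for each of the 6 pairs.

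Features that are alone in the table with their anticodon cannot be set beside a copy. tA(AGC)K2 and tS(CGA)C fell in WT, with means of -0.51 ± 0.39 and -0.54 ± 0.71 (SD, n = 7, limma adjusted p = 0.0109 and 0.0478). tC(GCA)P2, for cysteine, averaged 0.16 ± 0.52, tR(CCG)L, for arginine, 0.03 ± 1.06, tV(CAC)D -0.24 ± 0.63 and tV(UAC)D, both for valine, 0.18 ± 0.35 (SD, n = 7 each), and none of these passed. tR(CCG)L gave 1.02 and -2.53 on the ckb12 arrays and ranged from -1.13 to 2.15 on the WT arrays. tR(CCU)J had values on both ckb12 arrays, at 0.81 and -0.66, and on 5 WT arrays, between -0.15 and 1.01.

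Pooled members of families whose nuclear genes carry introns in yeast had lower medians than the rest, in WT by less than the SD over arrays. Families were not uniform, with WT means from -0.62 for tP(UGG) to 0.30 for tI(UAU). Anticodons outside these families ran from -0.87 for tN(GUU) to 1.07 for tT(CGU). The 43 members of 10 such families had a median of -0.31 and -1.88 on the ckb12 arrays and averaged -0.38 ± 0.46 over the WT medians (SD, n = 7). The 75 other nuclear members had 0.28 and -1.30 on the ckb12 arrays and averaged -0.17 ± 0.57 in WT (SD, n = 7). On WT replicates 10 and 11 the medians were alike, at 0.08 and -1.01 for the intron families and 0.10 and -1.02 for the others. The array values do not tell precursor from mature tRNA.

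Most copies of an anticodon, which may share signal, had a similar mean. For 105 of 110 copies the WT mean lay within 0.3 of the mean of the other copies, with a median distance of 0.11. The 5 exceptions were 2 aspartate and 3 tyrosine tRNAs, but the mean of the other copies can itself hold an outlying copy. tY(GUA)M1 and tY(GUA)M2 averaged -0.39 and -0.26, and each was set against a mean that included tY(GUA)J1, at 0.52. Likewise tD(GUC)L2, at 0.41, was set against a mean that included tD(GUC)J3. tD(GUC)J3 averaged -0.83 and its 6 complete sister copies 0.29, a difference of -1.12 that had the same sign on 7 of 7 WT arrays. tY(GUA)J1 lay 0.84 above the other tyrosine copies on average, and above them on 7 of 7 WT arrays.

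Both of these belong to letter J, whose tRNA features were unusual in another way. Of its 13 members, 9 had a blank on some array, out of 15 members with a blank in all. For ORF features of letter J the share with a blank was 9.18%, the third lowest of 16 letters, and over all features it was 11.7%. The other aspartate features of letter J stood well above their sister copies on some arrays. tD(GUC)J2 gave 0.48 and -0.44 on the ckb12 arrays, against 1.24, 0.40, 1.39, 1.13 and 2.07 on WT replicates 8 to 12. The copies on other letters averaged 0.61 and -2.17 on the ckb12 arrays, against -0.73, 0.48, 0.26, -0.83 and 2.12 on the same WT arrays. tD(GUC)J2 thus stood more than 1 unit above its sister copies on ckb12 replicate 2 and on WT replicates 8, 10 and 11, and close to them on WT replicates 9 and 12.

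**Figure D5:**
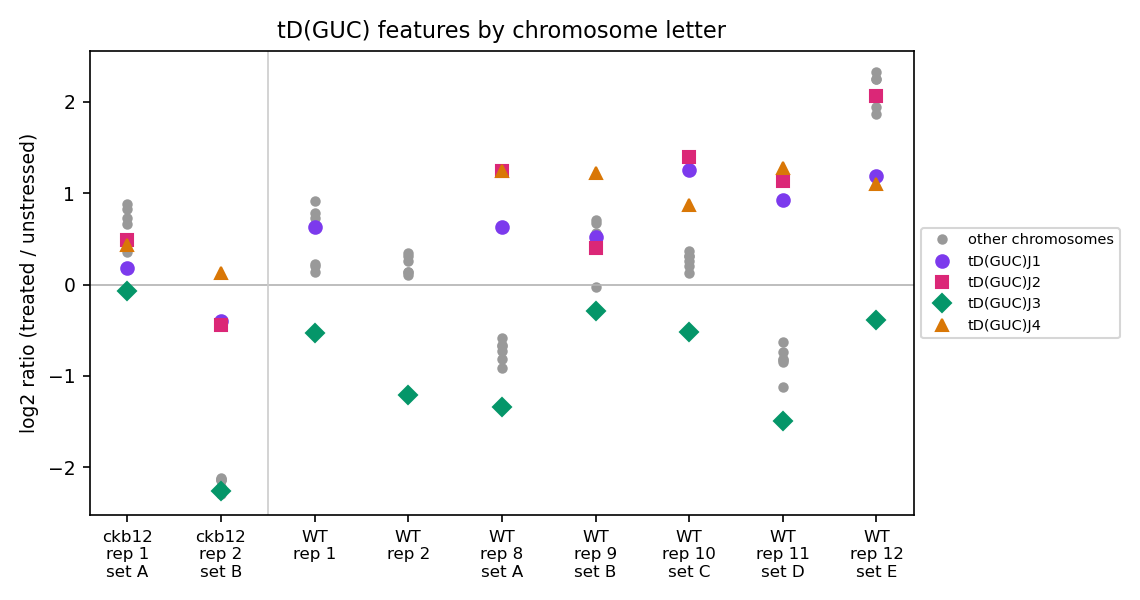
Log2 ratio of NaCl-treated over unstressed signal (vertical axis) for all aspartate tRNA features on each array, with the 4 features of chromosome letter J in colour and the other copies in grey; missing points are blanks in the table. tD(GUC)J3 lies below the grey copies on all WT arrays, whereas tD(GUC)J1, tD(GUC)J2 and tD(GUC)J4 lie above them on WT replicates 8, 10 and 11.

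Other letter J features also averaged above copies elsewhere, each over the WT arrays on which it had a value. tL(UAG)J averaged 0.75 against -0.36 for its sister copies (4 arrays), tV(AAC)J 0.19 against -0.59 (6 arrays), tK(CUU)J 0.42 against -0.24 (5 arrays) and tG(GCC)J2 0.75 against 0.28 (6 arrays). The smallest gaps were those of tE(UUC)J and tT(AGU)J, which had values on all arrays and averaged -0.08 against -0.14 and -0.26 against -0.44. Single arrays did not all follow the averages. On ckb12 replicate 1 tK(CUU)J gave -0.37 against 0.98, tG(GCC)J2 -0.39 against 0.64 and tV(AAC)J -0.16 against 0.54, whereas tL(UAG)J gave 0.80 against -0.64. On WT replicate 8 tK(CUU)J gave -1.17 against -0.84. tW(CCA)J, for tryptophan, had a single value, 1.35 on ckb12 replicate 2. Without letter J the nuclear class median was -0.80 in ckb12 and -0.26 in WT, beside -0.79 and -0.25 with its 4 complete features, while its 9 features with blanks never entered these medians.

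The other blanks fell in 2 groups. In the first, 3 mitochondrial features lacked values on some arrays, and in the second tK(CUU)D2, tP(UGG)O1 and tT(UGU)H had values only on WT replicates 1 and 2, the arrays without a set letter, a pattern shared by 34 features of the whole table. Their ratios there were -0.67 and -0.62 for tK(CUU)D2, -0.10 and -0.40 for tP(UGG)O1, and -0.36 and -0.31 for tT(UGU)H.

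Other transcripts of RNA polymerase III followed the array order in part. snR6, the U6 spliceosomal RNA, gave 1.05 and -0.72 on the ckb12 arrays and averaged 0.25 ± 0.70 in WT (SD, n = 7). snR52, a small nucleolar RNA made by the same polymerase, had 2.43 and -1.79 on the ckb12 arrays and averaged 0.47 ± 0.60 in WT (SD, n = 7). SCR1, the RNA of the signal recognition particle, had 0.16 and -0.46 on the ckb12 arrays and fell in WT (-0.52 ± 0.61, SD, n = 7, limma adjusted p = 0.0247). RPR1, the RNA of RNase P, had 0.30 and -0.38 on the ckb12 arrays and averaged -0.12 ± 0.45 in WT (SD, n = 7). All 4 were higher on ckb12 replicate 1 than on replicate 2, as were 118 of 124 tRNA features (95.2%), compared with 44.5% of all features. A gap of similar size was found in the 68 snR features, with medians of 0.40 and -0.88 on ckb12 replicates 1 and 2. It was thus not limited to the transcripts listed here. The 6 features of 5S ribosomal RNA, RDN5-1 to RDN5-6, had WT means between -0.43 and -0.28, each over the 6 or 7 WT arrays with a value. They too were all higher on ckb12 replicate 1 than on replicate 2. On WT replicate 12, the highest array for the tRNA class, they went the other way. There they stood between -1.55 and -0.41, with RDN5-6 blank.

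The features outside the class whose ratios followed the tRNA median most closely were mostly snR RNAs. Over 9 arrays, Pearson's r with the tRNA median was 0.966 for snR47, 0.917 for snR64 and 0.901 for snR17a, which is U3, and 0.911 and 0.896 for YOR394C-A and YDR278C. Of the 20 most alike among 6005 features, 12 were snR features, of which 68 were compared. snR47 had 0.38 and -1.35 on the ckb12 arrays, against 0.05, -0.18, -0.40, 0.00, 0.17, -0.72 and 0.92 on WT replicates 1, 2, 8, 9, 10, 11 and 12. The points share 9 arrays on which the whole class shifted.

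Most mRNAs of the tRNA pathway fell in both strains, where 35.7% of all features fell in ckb12 and 41.0% in WT. All 17 genes for subunits of RNA polymerase III, some of them shared with other RNA polymerases, fell in ckb12 and in WT, with list medians of -1.67 and -1.50, beside -0.09 and -0.04 for all features. RPO31, the largest subunit, had -1.27 and -1.41 on the ckb12 arrays and averaged -1.14 ± 0.16 in WT (SD, n = 7, limma adjusted p = 2.84e-08). All 21 cytosolic aminoacyl-tRNA synthetase genes, whose products charge the tRNAs, fell in both strains as well, with medians of -1.39 and -1.25. Of 49 genes for tRNA modification 45 fell in ckb12 and 46 in WT, and of 22 tested genes for end processing, splicing and export 16 fell in ckb12 and 16 in WT. Of 9 genes for tRNA decay 6 fell in ckb12 and 7 in WT. Rises were fewer, beside 27.4% of all features in ckb12 and 36.8% in WT. They numbered 0 in ckb12 and 1 in WT for modification, 1 and 3 for end processing, splicing and export, and 1 and 2 for decay. The decay gene RNY1 rose strongly, with a mean of 2.69 in ckb12 and 2.72 ± 0.29 in WT (SD, n = 7).

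Transcription factors of the polymerase were mixed. Of 11 genes 2 rose and 2 fell in ckb12, beside 27.4% and 35.7% of all features, and 3 rose and 3 fell in WT, beside 36.8% and 41.0%. MAF1, the repressor, rose, with 0.77 and 0.69 on the ckb12 arrays (mean 0.73, limma adjusted p = 0.000153) and 0.51 ± 0.11 in WT (SD, n = 7, limma adjusted p = 9.5e-06). BRF1, a subunit of TFIIIB, did not pass, with a mean of -0.06 in ckb12 and 0.17 ± 0.20 in WT (SD, n = 7, limma adjusted p = 0.0771). TFC3, the largest subunit of TFIIIC, rose in ckb12 (0.46, limma adjusted p = 0.0481) and in WT (0.67 ± 0.30, SD, n = 7, limma adjusted p = 7.31e-05), and SPT15, the TATA-binding protein, fell in ckb12 (-0.72, limma adjusted p = 0.00266) and in WT (-0.90 ± 0.22, SD, n = 7, limma adjusted p = 2.12e-06). No listed gene passed in the paired fit, where 0.0152% of all 6600 features did. Against all WT arrays 2 of 49 modification genes and 1 of 9 decay genes were lower in ckb12, beside 0.783% of all features.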

How the data were processed

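Per the labels, total RNA of treated and unstressed cells was made into dye-coupled cDNA and hybridised together to 2-colour tiled NimbleGen arrays, 1 array per culture. The deposited values are log2 ratios that the authors had normalized, 1 per feature and array, with replicates kept apart. Log base and direction are not written in the table and were taken from the methods and labels. Background correction, the joining of tiles into features and the rule for blanks are not given in the sources used here. Every treated channel has the same dye in the labels, although the methods speak of dye orientation for some samples. Signal over background is unknown, since intensities were not used, and precision is limited by the number of arrays. One label field of WT replicate 12 adds the word mutant to the strain, and it was kept as WT after its title and genotype.

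The members, lists and rules were chosen with earlier results of these data known. In R 4.3.3, limma 3.58.1 (lmFit, eBayes) with statmod 1.5.0 was run on the values as deposited. A model with 1 mean per strain over 9 arrays (6129 features) gave both responses and the difference from all WT arrays. The main strain difference, after the study's pairing of mutants with WT, used the 4 arrays of both shared sets with a set term (block, 6600 features). The pairing comes from the set letters. As a check, array deviations from the strain means were compared within sets and correlated at -0.0844 over all features and -0.384 over the tRNA features, whereas the consensus correlation within sets over 9 arrays was 0.177, and with 2 pairs these checks are weak. p-values measure the spread between arrays labelled as replicates, which may be technical in part. The limma fits were tested on simulated data with independent noise for each feature, which lacked the class shift between arrays.

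Class medians, amino acid and anticodon means and shares of variance are descriptions. Mitochondrial IDs were matched to a RefSeq table of the R64 assembly (9 of 9), whereas 0 nuclear tRNA IDs matched, so positions, sequences and neighbouring genes were not analysed here. Intron families were those of phenylalanine, proline, tryptophan and tyrosine with tI(UAU), tK(UUU), tL(CAA), tL(UAG), tS(GCU) and tS(CGA), from general knowledge, as were the pathway lists. Named were the 5 largest WT rises and falls, the 3 largest and smallest WT SDs, strain and set-letter calls or features without overlap, single-copy anticodons, members with blanks, the 5 most alike features and other polymerase III transcripts. Further features named in lists were chosen after their values were seen.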

Additional observations from a re-analysis of the deposited data

Results flagged for a closer look

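Among 47 groups of WT values tested for a sample far from the others, 2 were picked out, and chance picks out about 1 in 20 such groups. The mean of the 3 histidine tRNA features was -1.36 on WT replicate 11, with the next lowest WT array at -0.38, a gap of 0.640 of the whole range. The valine tRNA tV(UAC)D had 0.87 on WT replicate 2, with the next highest WT array at 0.24, a gap of 0.592 of the range. The response of mitochondrial tE(UUC)Q differed between ckb12 and all WT arrays by -1.30 (limma adjusted p = 0.0338). It was the only 1 of 124 tRNA features that passed (0.806%), where 1.14% of all features did. Within sets A and B it did not pass (limma adjusted p = 0.159), and the call was lost without some single arrays.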

How the results depend on the processing

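With 2 ckb12 arrays and class shifts between cultures, most limits come from single arrays. The 38 tRNA features called in WT became 82 with a Storey-type q value, 15 of 40 rows after averaging by anticodon, and 2 where a mean log2 change of at least 1 was also required. Leaving out single arrays gave 23 (without WT replicate 11) to 55 (without WT replicate 12), and 25 without WT replicate 8. With the class median taken off each array, an alternative chosen after seeing the data, there were 57, of which 24 were higher and 33 lower. The 48 called in ckb12 became 78 with the q value, 13 of 40 rows by anticodon, 30 with this requirement and 26 with the class median taken off, of which 11 were higher. Leaving out single arrays gave 5 to 81. For the paired difference the 0 calls became 2 with robust eBayes (178 of all 6600 features, against 1 as reported), 1 with the class median taken off (73 of 6600) and 1 with the set as a random block over 9 arrays (replicate block, 95 of 6129). They remained 0 with no replicate block on the 4 arrays (0 of all features), where 11 members had an unadjusted p below 0.05. Leaving out an array of this fit leaves no residual degrees of freedom and was not run. The 1 call against all WT arrays was lost (0) with blanks kept, with the class median taken off and without single arrays, where counts were 0 to 1. The count for set letters was 0 under every alternative run. The cause of these moves was not tested. The class median in WT was between -0.36 and -0.11 without single arrays, and that in ckb12 between -1.42 and -0.15. The anticodon share of variance stayed between 78.8% and 81.7%. For 11 results on named members, 174 of 196 alternatives kept direction and side of the threshold, 15 lost the call, 7 gained it and 0 changed sign.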
